A study of Homo sapiens with 6 samples.

Results

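Polyamines (putrescine, spermidine and spermine) are small positively charged molecules that bind nucleic acids and are needed for growth. The 10 genes that make and break them down were followed by poly(A) RNA sequencing in the MDA-MB-231 line, an established line from a human breast cancer of the triple-negative type. The genes were chosen by symbol from the 58825 rows of the deposited gene table: *ODC1*, *OAZ1*, *OAZ2*, *AZIN1*, *AMD1*, *SRM*, *SMS*, *SAT1*, *SMOX* and *PAOX*. Each matched 1 row, and all 10 passed the filter on low counts. The vehicle group (DMSO) held 3 libraries and the group given disulfiram with copper (DSF/Cu, 0.2 µM) held 3, all after 24 h, and each library pooled the cells of 3 wells. No library had disulfiram or copper alone, so the part of each cannot be told apart. The labels do not state that repeats were grown separately, and the spread between libraries may be technical. The set was proposed with results of this same comparison known. Its changes are therefore a description, and a gene is said to have risen or fallen where the fit over all genes gave an edgeR Benjamini-Hochberg adjusted p under 0.05.

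Ornithine decarboxylase (*ODC1*) makes putrescine from ornithine. S-adenosylmethionine decarboxylase (*AMD1*) supplies the aminopropyl groups that spermidine synthase (*SRM*) and spermine synthase (*SMS*) add in turn. Antizymes (*OAZ1*, *OAZ2*) bind the decarboxylase and hand it to the proteasome when polyamines are plentiful, and antizyme inhibitor (*AZIN1*), an inactive relative of the decarboxylase, ties antizyme up. In the other direction, spermidine/spermine acetyltransferase (*SAT1*) marks polyamines for export or for oxidation by *PAOX*, and spermine oxidase (*SMOX*) cuts spermine directly. Both oxidases release hydrogen peroxide.

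After DSF/Cu, 6 of the 10 genes rose (*SAT1*, *SMOX*, *OAZ2*, *OAZ1*, *AZIN1* and *ODC1*), 2 fell (*SRM* and *PAOX*) and 2 were not called (*SMS* and *AMD1*). Over all 18229 genes tested, 18.5% rose and 16.8% fell, 35.2% in all. At least 2-fold, *SAT1* and *SMOX* rose (7.42% of all genes) and no member fell (1.87% of all genes). The members' median log2 change was 0.24, and that of all genes was 0.0023. The DMSO and DSF/Cu libraries did not overlap for 9 of the 10 genes, which held for 51.2% of all genes. Nothing about the pathway as a whole is read from these counts, since the members were chosen with the comparison known.

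The antizyme genes carry a signal in their own coding sequence, which is shown because it is the step by which polyamines set antizyme output. The ribosome reaches a stop codon at the end of a short frame, and when polyamines are high it slips by a base and reads on in another frame. GENCODE 29 marks the slip by leaving out 1 base, in 2 of 11 *OAZ1* transcripts at position 2271443 of chromosome 19 and in 3 of 9 *OAZ2* transcripts at position 64691515 of chromosome 15 (GRCh38). The coding-strand sequences around it, from GENCODE 29 transcripts that keep the base, have the stop codon in capitals:
OAZ1: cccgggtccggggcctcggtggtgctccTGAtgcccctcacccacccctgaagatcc
OAZ2: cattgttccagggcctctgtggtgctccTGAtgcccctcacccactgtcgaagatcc
The windows of 57 bases are identical at 47 bases. Read counts per gene do not show which frame was translated, so the values below are of transcript level only.

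**Figure D1:**
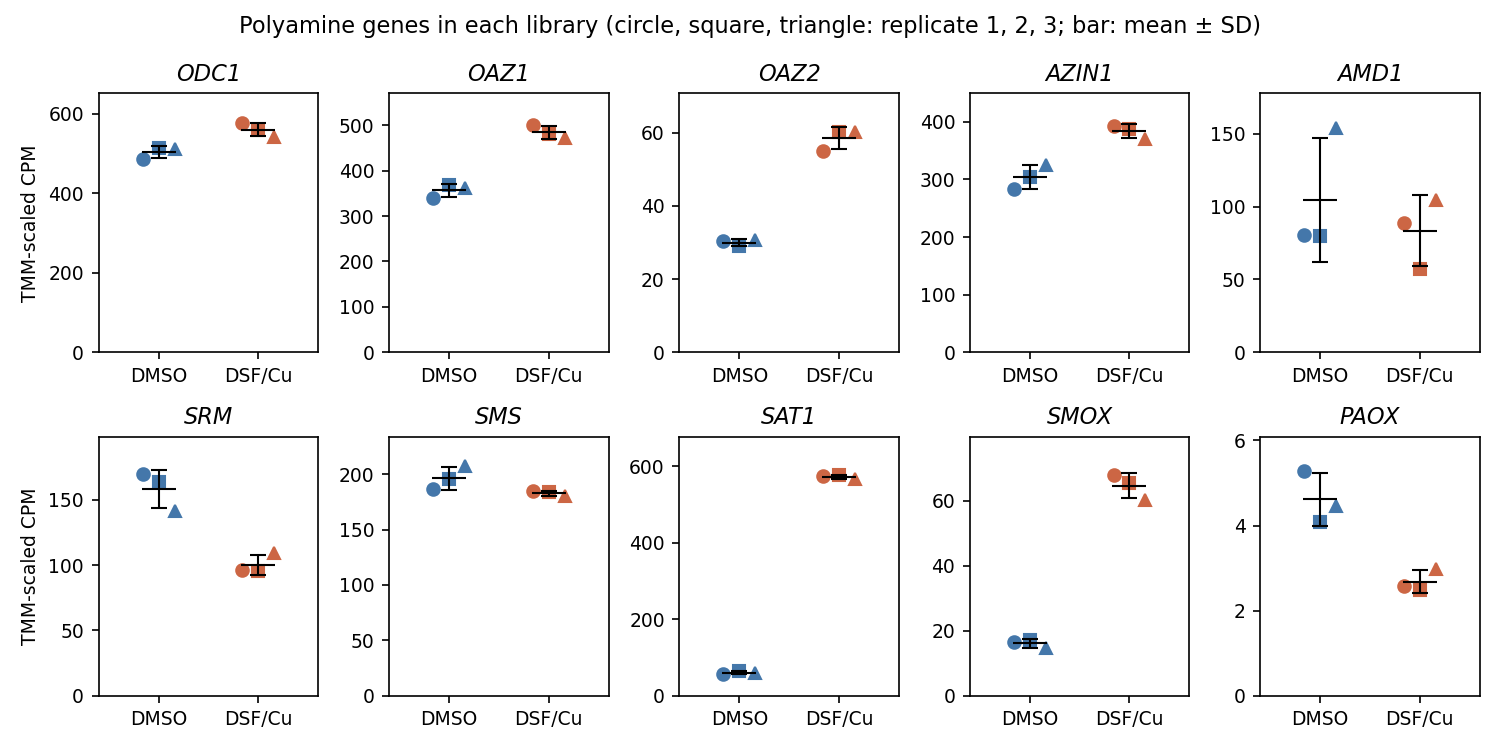
TMM-scaled CPM (counts relative to library size, linear axes from 0) of the 10 polyamine genes in each of the 3 DMSO and 3 DSF/Cu libraries, with the mean and SD as a bar. *SAT1* and *SMOX* lie far above their DMSO libraries after DSF/Cu, *SRM* and *PAOX* lie below, and *AMD1* is the gene whose groups overlap.

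*SAT1* had the largest change of the 10. It lies at chrX:23783173-23786226 on the plus strand (GRCh38 coordinates of the deposited table). Its level, in CPM (counts relative to library size) scaled between libraries by TMM, edgeR's trimmed mean of M-values, was 55.6, 64.4 and 60.2 in the DMSO libraries and 575, 576 and 566.5 in the DSF/Cu libraries. Every DSF/Cu library was thus far above every DMSO library, and the DSF/Cu libraries lay close together (coefficient of variation 0.907%, against 7.37% in DMSO). The fitted log2 change was 3.25 ± 0.07 (SE, n = 3 per group), a 9.53-fold rise. Over the 16 alternative settings it stayed between 3.03 and 3.30. In bulk libraries, more cells with the transcript and more transcript per cell cannot be told apart, here or for the other genes.

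The 250 bases before the *SAT1* start (chrX:23782923-23783172, plus strand, RefSeq, GRCh38.p14) are shown as the promoter of the gene with the largest rise, with the letters that match a searched motif in capitals:
SAT1: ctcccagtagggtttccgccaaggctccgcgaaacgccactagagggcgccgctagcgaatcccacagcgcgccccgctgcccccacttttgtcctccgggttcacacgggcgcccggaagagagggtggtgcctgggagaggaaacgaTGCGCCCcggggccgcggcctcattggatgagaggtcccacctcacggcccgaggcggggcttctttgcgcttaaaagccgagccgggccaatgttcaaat
The motifs, searched on both strands, were the metal response element core (TGCACNC or TGCGCNC), the antioxidant response element core (TGACNNNGC), the heat shock element (by its consensus of inverted GAA units), the C/EBP-ATF response element (TGATGNAA), the AP-1 site (TGANTCA) and the E-box (CACGTG). The *SAT1* window held TGCGCCC, a match to TGCGCNC, at 101 to 95 bases before the start, and no other match. Of 35116 RefSeq promoter windows of this length, 16.8% held TGCGCNC, 9.87% TGCACNC, 10.9% TGACNNNGC, 0.441% the heat shock element, 3.14% TGATGNAA, 6.57% TGANTCA and 6.34% CACGTG. The match is a description of letters and says nothing of binding.

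*SMOX*, at chr20:4120980-4187747 on the plus strand, had 16.5, 17.2 and 14.7 CPM in DMSO and 67.9, 65.5 and 60.4 after DSF/Cu. All DSF/Cu libraries were above all DMSO libraries. The rise was 2.00 ± 0.09 on the log2 scale, or 4.01-fold. *PAOX*, the oxidase that acts on acetylated polyamines, moved the other way. This gene, at chr10:133379261-133391694 on the plus strand, was the least counted of the 10, with 403, 274 and 295 counts in DMSO and 146, 143 and 158 after DSF/Cu. Scaled, these were 5.29, 4.09 and 4.46 CPM against 2.59, 2.48 and 2.99 CPM, again without overlap. *PAOX* fell by 0.78 ± 0.17 on the log2 scale, and the 16 alternatives gave -0.97 to -0.54. Within a library, the ratio of *SMOX* to *PAOX* in FPKM (fragments per kilobase and library size, a level per length) does not depend on scaling between libraries. It was 2.38, 3.20 and 2.51 in DMSO and 20.03, 20.2 and 15.6 after DSF/Cu. The catabolic genes therefore did not move together: the acetyltransferase and the spermine oxidase rose and the acetylpolyamine oxidase fell.

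*ODC1*, at chr2:10439968-10448327 on the minus strand, is the rate-limiting step of synthesis and the target of the antizymes. Its level was 487, 513.5 and 511 CPM in DMSO and 577, 560.5 and 543 CPM after DSF/Cu. The groups did not overlap, but the step between them was small, a log2 change of 0.15 ± 0.05 (edgeR adjusted p = 0.0409). The call was lost with DESeq2 (adjusted p = 0.104), with no count filter (0.0952) and without DMSO replicate 1 (0.103), 2 (0.0866) or 3 (0.0877) or DSF/Cu replicate 1 (0.0890) or 2 (0.101). Scaled by total counts in place of TMM, the change was -0.03 (edgeR adjusted p = 0.555). In deposited FPKM the level was 163 ± 3.71 in DMSO and 161 ± 2.18 after DSF/Cu (SD, n = 3), so the direction for *ODC1* rests on the scaling. With total-count scaling the median over all genes was -0.18, and 32.7% of calls over all genes were rises, against 52.4% with TMM.

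Both antizyme genes rose. *OAZ1*, at chr19:2269509-2273490 on the plus strand, had 341, 369 and 362 CPM in DMSO and 501, 481 and 471.5 after DSF/Cu. Its change was 0.44 ± 0.05 (log2, SE) or 1.36-fold, and it stayed called under all 16 alternatives, between 0.25 and 0.47. *OAZ2*, at chr15:64687573-64703281 on the minus strand, was less abundant, with 30.3, 29.01 and 30.6 CPM in DMSO and 54.9, 60.2 and 60.3 after DSF/Cu. It rose by 0.96 ± 0.07 on the log2 scale, or 1.95-fold, with all DSF/Cu libraries above all DMSO libraries. Within libraries the FPKM ratio of *OAZ2* to *OAZ1* was 0.0376 ± 0.00231 in DMSO and 0.0541 ± 0.00441 after DSF/Cu (SD, n = 3), so the rarer antizyme gained on the commoner one. The ratio of *OAZ1* to *ODC1* was 0.568, 0.583 and 0.575 in DMSO and 0.706, 0.697 and 0.705 after DSF/Cu. More antizyme 1 transcript per decarboxylase transcript was thus present in each DSF/Cu library.

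*AZIN1*, on the minus strand of chromosome 8, had 283, 305 and 326 CPM in DMSO and 393.5, 387 and 371 after DSF/Cu. It rose by 0.33 ± 0.06 on the log2 scale, or 1.26-fold. Under total-count scaling the change was 0.15 and not called (edgeR adjusted p = 0.0855), and in 3 limma fits to FPKM it was 0.16 to 0.17 (adjusted p from 0.0552 to 0.0975). Its log2 change stood beside 0.44 for *OAZ1* and 0.96 for *OAZ2*. The FPKM ratio of *AZIN1* to *OAZ1* was 0.481, 0.479 and 0.521 in DMSO and 0.455, 0.467 and 0.456 after DSF/Cu. The ratio was lower in each DSF/Cu library than in each DMSO library, by a small margin.

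The aminopropyltransferase genes differed. *SRM*, at chr1:11054584-11060018 on the minus strand, had 170, 163 and 142 CPM in DMSO and 96.0, 95.7 and 109 after DSF/Cu, with no overlap. It fell by 0.66 ± 0.09 on the log2 scale, so that DMSO was 1.58-fold above DSF/Cu, and the 16 alternatives gave -0.84 to -0.61. *SMS*, at chrX:21940709-21994837 on the plus strand, had 187, 195 and 207 CPM in DMSO and 185, 184 and 180 after DSF/Cu. Its groups did not overlap, but the gap was narrow, and the change of -0.10 ± 0.05 was not called (edgeR adjusted p = 0.202). Under total-count scaling *SMS* was called lower (-0.29, adjusted p = 0.00613), as it was in 3 limma fits to FPKM (-0.27, adjusted p from 0.00467 to 0.0100). The FPKM ratio of *SRM* to *SMS* was 0.973, 0.895 and 0.732 in DMSO and 0.556, 0.556 and 0.647 after DSF/Cu, so spermidine synthase transcript was lower relative to spermine synthase transcript whatever the scaling.

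The *SRM* promoter, the 250 bases before the start (chr1:11060019-11060268, minus strand, RefSeq, GRCh38.p14), is shown as that of the synthesis gene called lower. It held an E-box, as did 6.34% of all windows (capitals, 199 to 194 bases before the start):
SRM: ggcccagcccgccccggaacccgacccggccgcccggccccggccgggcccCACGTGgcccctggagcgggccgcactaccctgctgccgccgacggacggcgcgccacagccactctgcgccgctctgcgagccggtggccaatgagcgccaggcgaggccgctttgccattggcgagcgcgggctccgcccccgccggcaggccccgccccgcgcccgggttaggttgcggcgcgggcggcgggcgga
Windows were read for 7 of the 10 genes, and not for *AZIN1*, *SMOX* or *PAOX*. Besides these matches, the *OAZ2* window held TGAGTCA, a match to the AP-1 site, at 241 to 235 bases before the start, and the *OAZ1* window held the letters GCGCGCA, a minus-strand match to TGCGCNC, at 2 places. The *ODC1*, *SMS* and *AMD1* windows held none of the motifs. Sites outside these 250 bases were not searched, and a link of any site to a change was not tested. None of the 7 windows held the heat shock element or the antioxidant response element core, which says only that these letters are not in those windows.

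*AMD1*, at chr6:110874770-110895713 on the plus strand, stood apart by its spread. It had 80.3, 79.8 and 154 CPM in DMSO and 89.1, 57.0 and 105 after DSF/Cu, so that the groups overlapped. The coefficient of variation was 40.7% in DMSO and 29.03% in DSF/Cu. Of 4343 genes with a mean of at least 50 CPM, 2.39% varied as much or more within DMSO and 4.97% within DSF/Cu, and the medians were 5.10% and 5.41%. The log2 change was -0.33 ± 0.33 and was not called (edgeR adjusted p = 0.490). Without DMSO replicate 3 it was 0.06 ± 0.25 (adjusted p = 0.896). For *AMD1* a change was therefore not detectable at this spread. Rows named as *AMD1* pseudogenes held 0 to 4 counts per library.

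**Figure D2:**
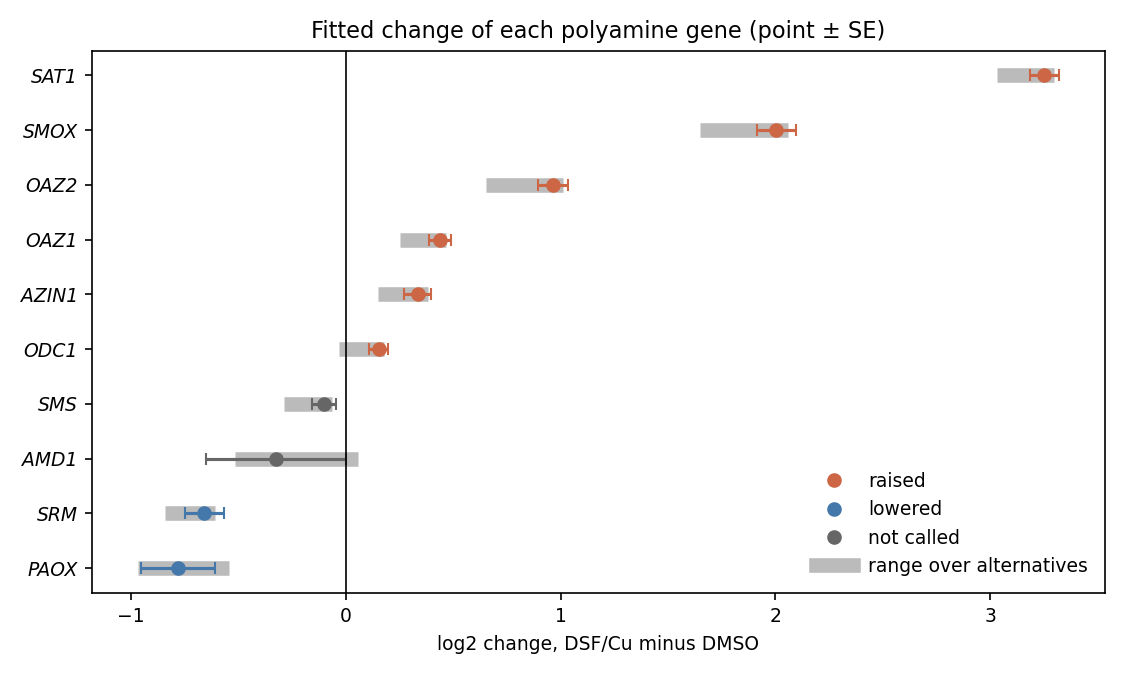
Fitted log2 change (DSF/Cu minus DMSO) of each polyamine gene as a point with its standard error, and the range over 16 alternative settings as a grey bar. *SAT1*, at 3.25, and *SMOX*, at 2.00, stand to the right, the bars of *ODC1* and *AMD1* cross 0, and *SRM* and *PAOX* stay below 0.

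The order of levels changed at the top. In DMSO, mean FPKM ran from *ODC1* (163) through *OAZ1* (93.7), *SMS* (87.4), *SRM* (75.3), *AZIN1* (46.3), *SAT1* (21.7), *AMD1* (13.4), *SMOX* (4.91) and *OAZ2* (3.52) to *PAOX* (1.84). Neighbours in that order did not overlap between libraries, except *OAZ1* with *SMS*. After DSF/Cu the order was *SAT1* (183.5), *ODC1* (161), *OAZ1* (113), *SMS* (72.3), *AZIN1* (51.8), *SRM* (42.4), *SMOX* (17.5), *AMD1* (9.52), *OAZ2* (6.10) and *PAOX* (0.950), with no overlap between neighbours. *SAT1* thus went from the sixth place to the highest, and its FPKM ratio to *ODC1* went from 0.127, 0.140 and 0.132 to 1.11, 1.15 and 1.17. As a share of the summed FPKM of the 10 genes, *SAT1* held 4.24 ± 0.227% in DMSO and 27.9 ± 0.327% after DSF/Cu (SD, n = 3). Shares sum to the whole, so a larger *SAT1* share leaves less for the other genes together: that of *ODC1* went from 31.9 ± 0.181% to 24.4 ± 0.423% although its FPKM was 163 and 161. The share of *SRM* was 14.8 ± 1.70% in DMSO and 6.45 ± 0.562% after DSF/Cu. Together the 10 genes took 0.178% to 0.193% of all counts in DMSO libraries and 0.233% to 0.235% in DSF/Cu libraries. They held 116655 to 126160 counts per DMSO library and 130581 to 143362 per DSF/Cu library. *SAT1* alone held 3979 to 4320 and 29954 to 33258 of these, so the larger share is not one of the set as a whole.

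**Figure D3:**
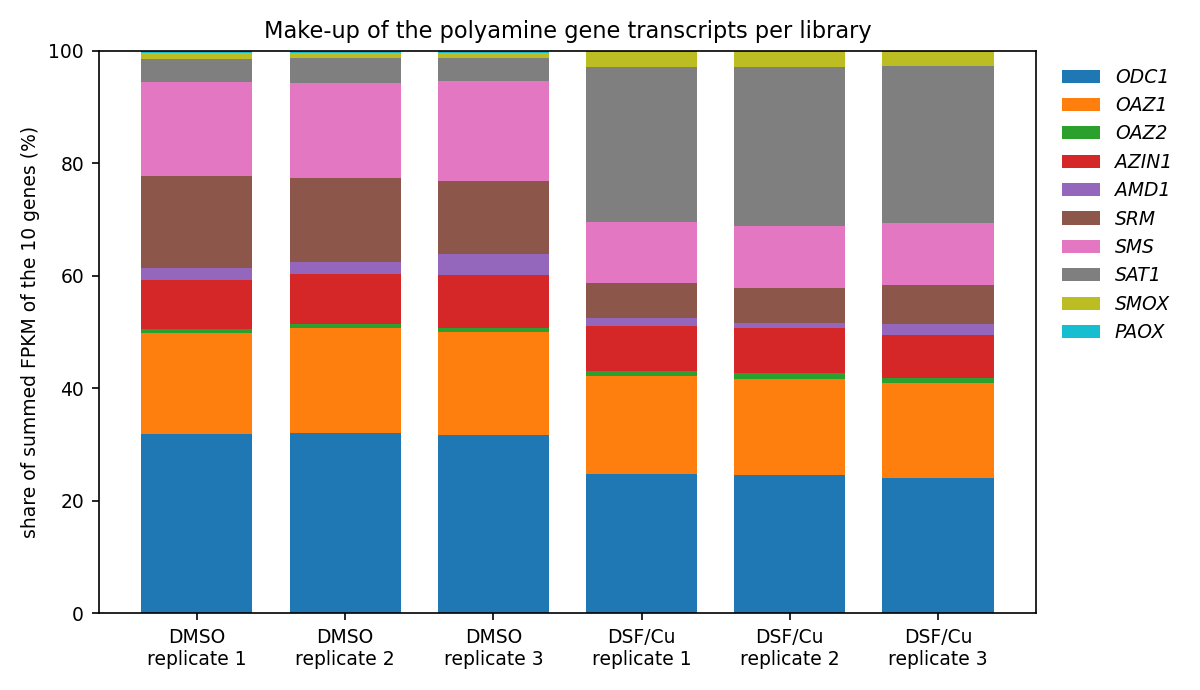
Stacked bars of the share of summed FPKM (percent, vertical axis) that each of the 10 genes took in each library. The *SAT1* band widens from 4.05% to 4.49% of the sum in the DMSO libraries to 27.6% to 28.2% in the DSF/Cu libraries, and the *ODC1*, *SMS* and *SRM* bands narrow beside it.

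Some rows could share reads with the polyamine genes. Whether counting used the strand is not given in the sources used here. Exons of *OAZ1* share 236 bases with the opposite-strand gene *JSRP1*, which held 69 to 140 counts per library, where *OAZ1* held at least 23902. They also share 220 bases with the same-strand gene *AC005258.1*, and exons of *OAZ2* share 554 with the opposite-strand *AC100830.3*. Both of these rows held 0 counts in every library, which does not show how reads in the shared bases were assigned. The exons of *AZIN1* share 344 bases with *AZIN1-AS1*, which held 49 to 121 counts, where *AZIN1* held at least 19615. The overlap weighed more for *PAOX*: its exons share 158 bases with the same-strand gene *AL360181.3*, which held 9 counts in DMSO replicate 3 and 23 in DSF/Cu replicate 3, beside 295 and 158 for *PAOX*, and 0 in the others. Pseudogene rows of *SRM* held 0 to 3 counts.

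The genes with the pattern most like that of *SAT1* were *CREBRF*, *MMP3* and *IL11*. Likeness was the Euclidean distance over the 6 libraries of log2 CPM centred on the DMSO mean. A small constant was added to CPM before the logarithm. The candidates were 6452 other protein-coding genes whose higher group reached a mean of 5 FPKM. The constant shrinks changes at low CPM, as for *MMP3* (mean 2.46 in DMSO, 28.8 after DSF/Cu), and so shortens its distance to *SAT1*. *CREBRF* (distance 0.222) had a log2 change of 3.18 ± 0.09, *MMP3* (0.229) of 3.55 ± 0.14 and *IL11* (0.336) of 3.17 ± 0.10. Nearest to *SMOX* were *CSRNP1* (0.183), *BCL6* (0.201) and *ABHD4* (0.217). Nearest to *ODC1*, whose change was small, were *PAF1* (0.0421), *SF3A3* (0.0467) and *MRPS11* (0.0525). With 2 groups of 3 libraries, a short distance mostly reflects a change of like size.

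The wider pathway was read from 8 lists of related genes, 56 genes in the table, of which 46 passed the filter. Of these, 8 rose and 13 fell, with a median log2 change of -0.04, beside 18.5% and 16.8% of all genes. These shares also stand beside the counts of each list below, where so few genes give no reading of a list as a whole. Under total-count scaling 4 rose and 21 fell. Without DMSO replicate 1 or DSF/Cu replicate 2, 5 rose and 8 fell, and 8 fell without DMSO replicate 2 or DSF/Cu replicate 3. The paralogs of the polyamine genes gave no call: *SAT2*, a second acetyltransferase gene, had 13.1 ± 1.08 CPM in DMSO and 15.4 ± 3.10 after DSF/Cu, *AZIN2* had 7.13 ± 0.549 and 5.58 ± 0.598, and *OAZ3* had 1.05 ± 0.481 and 1.19 ± 0.252 (SD, n = 3). *AZIN2* was called lower under total-count scaling (-0.54, edgeR adjusted p = 0.0256). *SATL1* was not tested, with 4 counts in 1 library and 0 in the others. The rise of *SAT1* thus had no called counterpart in *SAT2*, though the difference between the 2 genes was not tested.

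Of the 6 tested genes in the list of ornithine and arginine supply, 3 fell and none rose, beside 16.8% and 18.5% of all genes. The falls include *AGMAT*, which itself supplies neither ornithine nor arginine. When only genes with a mean FPKM of at least 1 were tested, 1 rose. *ALDH18A1*, which makes the precursor of proline and ornithine from glutamate, went from 160 ± 5.56 to 109 ± 4.57 CPM, a fall of 0.55 ± 0.06 (log2, SE). *ASL*, which releases arginine, fell by 0.70 ± 0.10, and *AGMAT*, which makes putrescine from agmatine, by 0.54 ± 0.13. *AGMAT* lost its call without DMSO replicate 2 (edgeR adjusted p = 0.0610) or DSF/Cu replicates 1 (0.0559), 2 (0.0591) or 3 (0.0523). *ARG2* and *OAT*, which yield or use ornithine directly and were named after their values were seen, were not called (log2 changes 0.33 ± 0.11 and -0.10 ± 0.10).

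Of 4 tested genes of S-adenosylmethionine supply, 2 fell, beside 16.8% of all genes. All 4 fell under total-count scaling and in limma fits to log2(FPKM + 1) and log2(FPKM + 0.1), and 3 in the limma fit with no filter. Methionine synthase, *MTR*, went from 42.3 ± 1.35 to 24.6 ± 3.04 CPM, a fall of 0.78 ± 0.10, and *AHCY*, which clears S-adenosylhomocysteine, fell by 0.26 ± 0.04. The synthetase *MAT2A* had 253 ± 15.8 and 244 ± 2.77 CPM and was not called, but was called lower under total-count scaling (-0.23, edgeR adjusted p = 0.0176).

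Spermidine and spermine synthases release methylthioadenosine, which *MTAP* salvages. *MTAP* had 0 counts in all 6 libraries, and a limit of 3 counts is 0.0394 to 0.0567 CPM per library. Its neighbours *CDKN2A* and *CDKN2B* also had 0 counts in all 6, and this locus is known to be deleted in the line. Of the 5 tested genes in the same salvage list, 2 fell, beside 16.8% of all genes. They were *ENOPH1* (by 0.51 ± 0.06) and *MRI1* (by 0.60 ± 0.18). *MRI1* lost its call with no count filter (edgeR adjusted p = 0.0608), without DMSO replicates 1 (0.121) or 2 (0.107), and without DSF/Cu replicates 1 (0.123) or 3 (0.126).

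Of 12 tested transport genes, 1 rose and 5 fell, beside 18.5% and 16.8% of all genes. The falls numbered 2 without DMSO replicate 1 or DSF/Cu replicate 2, 3 without DMSO replicate 2, DMSO replicate 3 or DSF/Cu replicate 3 and with no count filter, and 7 under total-count scaling and in 3 limma fits to FPKM. *SLC3A2*, the heavy chain of several amino acid exchangers that is also tied to export of acetylated polyamines, went from 183 ± 15.1 to 363 ± 18.9 CPM, a rise of 0.99 ± 0.08. The glypican *GPC1* fell by 0.60 ± 0.08 and the arginine and lysine carrier *SLC7A2* by 0.40 ± 0.09. The other falls, *SLC18B1*, *SLC22A3* and *SLC47A1*, were named after their values were seen. *ATP13A3*, a polyamine importer of the P5B type, had 159, 258 and 258 CPM in DMSO and 230, 268 and 268 after DSF/Cu and was not called. Without DMSO replicate 1 its log2 change was -0.02, against 0.18 with all libraries.

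Spermidine is also the source of hypusine, a modified lysine found in eIF5A. Of 4 tested genes, *EIF5A2* rose by 0.30 ± 0.08 and 3 were not called. Under total-count scaling, and in 3 limma fits to FPKM, no gene of the list rose and 1 fell. The more abundant *EIF5A*, named after its values were seen, had 680.5 ± 33 CPM in DMSO and 600 ± 65.5 after DSF/Cu (SD, n = 3). It was not called (log2 change -0.18 ± 0.09, SE). *EIF5A2* was not called under total-count scaling (0.11, edgeR adjusted p = 0.283) or in 3 limma fits to FPKM, nor when DMSO replicate 1, DMSO replicate 2, DSF/Cu replicate 1 or DSF/Cu replicate 2 was left out (adjusted p from 0.0706 to 0.0782). Among 3 tested genes of amine breakdown, *HDAC10*, a polyamine deacetylase, fell by 0.50 ± 0.14 and *ALDH9A1*, an aminoaldehyde dehydrogenase, rose by 0.19 ± 0.06. *HDAC10* lost its call without any 1 of the 6 libraries (adjusted p from 0.0551 to 0.0981) and with no count filter (0.0517). *ALDH9A1* was at 0.01 under total-count scaling (adjusted p = 0.923) and lost its call under 12 of 16 alternatives.

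Of 9 tested factors known to act on *ODC1* or *SAT1* transcription, 5 rose and none fell, beside 18.5% and 16.8% of all genes. Total-count scaling gave 3 rises and 1 fall, upper-quartile scaling 5 and 1, and each of 3 limma fits to FPKM 4 and 1. *NFE2L2*, which encodes NRF2, went from 191 ± 1.94 to 316 ± 0.426 CPM, and its partner at the *SAT1* gene, *PMF1* (polyamine-modulated factor), from 19.1 ± 1.63 to 29.9 ± 2.62 CPM, a rise of 0.65 ± 0.10. *MXD1*, which competes with MYC for MAX, rose by 2.08 ± 0.12, from 10.8 ± 1.21 to 46.0 ± 4.86 CPM. *MAX* and *PPARG* also rose and were named after their values were seen. *MYC*, a known activator of *ODC1*, was not called (log2 change 0.61 ± 0.96). It had 7.19, 151 and 150 CPM in DMSO and 209.5, 187 and 73.1 CPM after DSF/Cu, so that DMSO replicate 1 and DSF/Cu replicate 3 lay low. Without DMSO replicate 1 the change was 0.05 (edgeR adjusted p = 0.947).

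**Figure D4:**
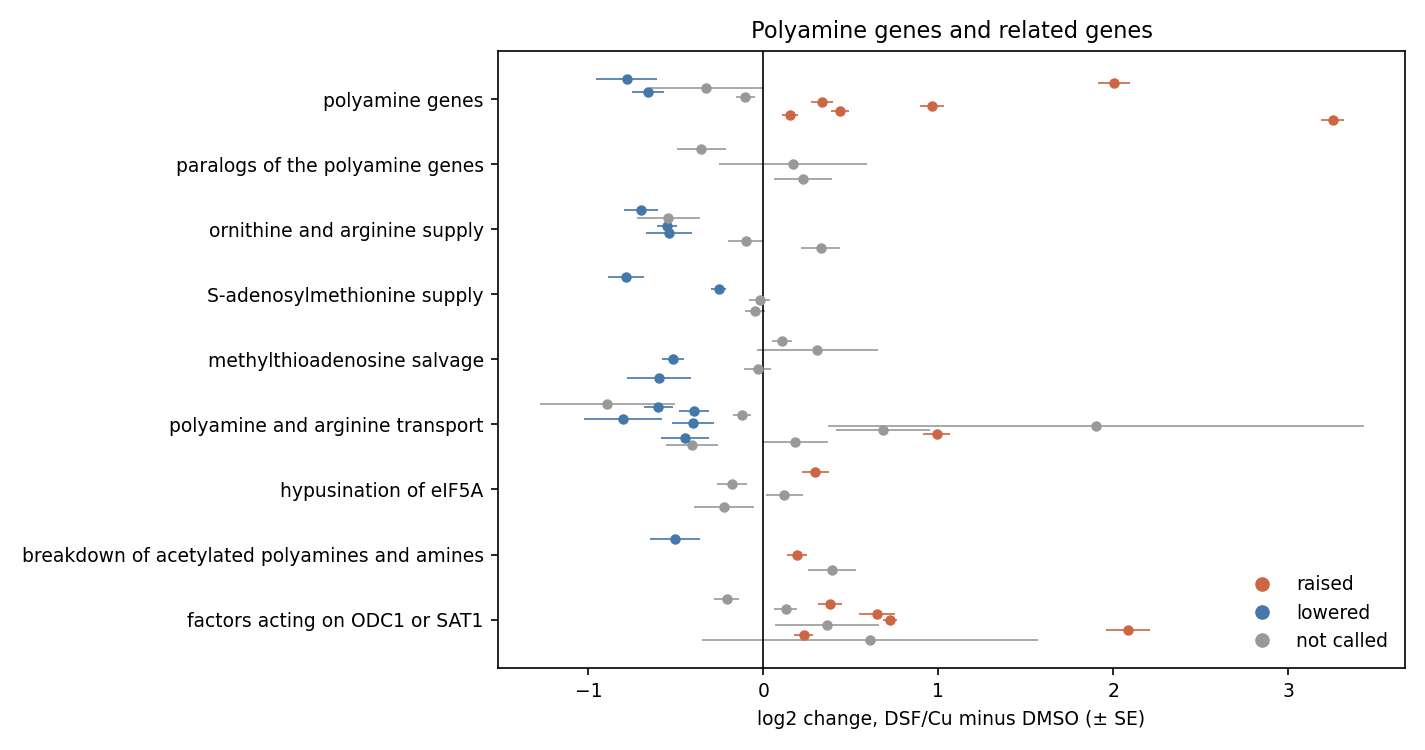
Log2 change (DSF/Cu minus DMSO) with its standard error for each tested gene of the 10 polyamine genes and of the 8 lists of related genes, coloured by call. Calls in the lists of ornithine and arginine supply, S-adenosylmethionine supply and methylthioadenosine salvage are all falls, with 1 rise in the first list when genes needed a mean FPKM of at least 1. Those among factors acting on *ODC1* or *SAT1* are all rises, with 1 fall under total-count or upper-quartile scaling and in 3 limma fits. The list of ornithine and arginine supply includes *AGMAT*, which makes putrescine. Over all genes tested, 18.5% rose and 16.8% fell, and no list is read as a whole from so few genes.

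The libraries held 55563223 to 70883177 counts. Of markers of the line, mean FPKM in DMSO and after DSF/Cu was 574 and 423 for *VIM*, 26.5 and 27.0 for *CD44* and 9.96 and 9.24 for *FN1*. Of luminal and receptor markers, *CDH1* had 0 to 4 counts, *ESR1* 6 to 19 and *PGR* 15 to 72 per library. Others of that list were present, with mean FPKM in DMSO and after DSF/Cu of 47.15 and 27.7 for *KRT18*, 6.06 and 3.08 for *ERBB2*, 2.60 and 1.43 for *EPCAM* and 0.745 and 0.806 for *GATA3*. Of markers of other cells, *CD3E*, *DCN* and *ADIPOQ* had 0 counts in all 6 libraries, while *PTPRC* had 0 to 12, *VWF* 0 to 19, *PLIN1* 0 to 8 and *PECAM1* 19 to 56. *COL1A1* had 100 to 247 counts in DMSO and 311 to 366 after DSF/Cu, and *CD14* 8 to 30 and 67 to 127. The part of these markers in the results was not tested. The 20 most counted genes took 10.7% to 11.2% of counts in DMSO and 14.7% to 16.03% after DSF/Cu.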

How the data were processed

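The authors deposited 1 gene table with a whole-number count and an FPKM value per gene and library, per the file headers. The Control columns were read as DMSO, the vehicle group and the only one without DSF/Cu. StringTie 1.3.0, HISAT2 2.0 and Bowtie 0.12.2 are listed with no role, per the submitters' processing notes, as is the mouse build mm8, although the genes are human: 58552 of 58825 gene IDs occur in GENCODE 29, 58235 of them with a matching chromosome and starts at most 1 kb apart. The counter is not given in the sources used here. Counts were filtered with filterByExpr, scaled by TMM and tested, two-sided, with glmQLFTest (edgeR 4.0.16, R 4.3.3, quasi-likelihood), with Benjamini-Hochberg adjustment over 18229 genes. Standard errors are the absolute log2 change over the square root of F. Alternatives were other scalings, DESeq2 1.42.0, other filters, limma 3.58.1 on log2 FPKM with a pseudocount of 1 or 0.1, a replicate block and leaving out each library. The steps were also run on simulated counts. Far fewer genes changed there than were called here, so that run does not test the choice of scaling. Libraries of a group differed beyond counting noise (chi-square per degree of freedom 45.7 to 58.1). The members and gene lists were chosen with earlier results of these data known. Named genes were all members and paralogs, up to 3 called genes per other list by adjusted p, and 7 further genes whatever their result (*MTAP*, *MYC*, *NFE2L2*, *PMF1*, *MAT2A*, *ATP13A3* and *SLC3A2*), besides genes nearest to *SAT1*, *ODC1* and *SMOX*. Exceptions are named as such.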

Additional observations from a re-analysis of the deposited data

How the results depend on the processing

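The calls of *SAT1*, *SMOX*, *OAZ1*, *OAZ2*, *SRM* and *PAOX* kept their direction and side of the threshold under all 16 alternatives. Total-count scaling gave 4856 genes lowered over all genes, with 4 other pathway genes raised and 21 lowered. Limma gave 1945 genes raised on log2(FPKM + 1), 1947 on log2(FPKM + 0.1) and 2231 on log2(FPKM + 1) with no filter, where 5 other pathway genes were raised in each and 20, 20 and 19 lowered. Without 1 library, other pathway genes raised numbered 5 to 7 and lowered 8 to 10. *ODC1* turned to -0.0333 under total-count scaling and to -0.0190, -0.0191 and -0.0190 in the limma fits. *OAZ3* turned to -0.0161 under total-count scaling, -0.172 without DMSO replicate 3 and -0.0116 without DSF/Cu replicate 3, and reached 0.384 without another library. *ATP13A3* turned to -0.000175 under total-count scaling and -0.0185 without DMSO replicate 1, with 0.288 as its highest value without 1 library, and *AMD1* to 0.0565 without DMSO replicate 3, with -0.515 as its lowest. Of the genes nearest to *ODC1*, *PAF1*, *SF3A3* and *MRPS11* turned to -0.0307, -0.0359 and -0.0115 under total-count scaling, *PAF1* to -0.0154, -0.0159 and -0.0154 and *SF3A3* to -0.0214, -0.0218 and -0.0214 in the limma fits. The cause of these shifts was not tested. Samples shared only a replicate number. Deviations of same-numbered libraries correlated at 0.0252, 0.0380 and 0.0535 across genes, and those of other pairs at -0.0583 to 0.0205. Every library correlated best with its own number, but all values were near 0. Whether libraries were paired cannot be told from them. With the replicate block, 5 members rose and 2 fell, *ODC1* (0.152), *AGMAT*, *MRI1*, *EIF5A2*, *HDAC10* and *ALDH9A1* were not called, and 5 other pathway genes were raised. *AMD1* was at -0.299 with the block. The depth limits *PAOX*, *OAZ3* and *HDAC10* most, with few counts per library.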
